A study of Bos taurus with 8 samples.

Results

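The genes described here encode the muscle acetylcholine receptor and the proteins that gather it at the neuromuscular junction, and they were chosen by name for this function: *CHRNA1*, *CHRNB1*, *CHRND*, *CHRNE*, *CHRNG*, *RAPSN*, *MUSK*, *DOK7*, *LRP4* and *AGRN*. All 10 were found among the 18871 named genes of the count table, and all 10 passed the filter of at least 20 reads in total that left 18339 genes to test. RNA-seq had been performed on 8 preadipocyte clones from adult male Angus-cross steers (*Bos taurus*), 4 grown from the stromal vascular fraction of intramuscular fat (IMF1 to IMF4) and 4 from that of subcutaneous fat (SF1 to SF4). Every clone was the outgrowth of 1 cell and therefore 1 line, no genetic change or drug distinguished the groups, and fat depot was the only labelled difference. The study sequenced chosen clones only, those that grew and made fat well and looked like fibroblasts, so they do not sample all stromal cells of either depot. The study's methods place RNA collection at 80% confluence in growth medium, before any adipogenic induction, whereas the deposited design text places it after induction. The methods name 6 steers and the labels 5, and the clones of a depot came from separate stromal vascular samples. Whether an IMF clone and an SF clone shared an animal is not stated in the sources used here, and the p-values measure the spread between clones.

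The muscle acetylcholine receptor is a ligand-gated ion channel built from α, β and δ subunits together with either the γ subunit, in fetal or denervated muscle, or the ε subunit, which takes its place in innervated adult fibres. Its gathering under the nerve terminal starts when agrin binds the receptor LRP4, which activates the kinase MuSK from outside the cell. DOK7 activates MuSK from the inside, and rapsyn then packs the receptors into clusters. In cultured muscle cells the α, γ and δ subunit genes and the genes for MuSK and rapsyn are known to be switched on by the MyoD family of transcription factors as myoblasts differentiate, whereas the ε subunit gene depends on innervation and agrin and LRP4 are made in many tissues.

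The receptor and its clustering genes were higher in IMF than in SF clones for 7 of the 10 genes, lower for *LRP4*, and not past the threshold for *CHRNE* and *AGRN*. The threshold was an adjusted p under 0.05 in edgeR's quasi-likelihood test together with a log2 fold change of 1 or more in either direction. Across all genes tested, 8.82% were past it in either direction, 4.78% higher and 4.04% lower in IMF (877 and 741 genes, 1078 and 539 with scaling by total counts alone, 977 and 1019 with DESeq2, 767 and 864 without IMF1). The scaled counts (CPM, counts scaled to a common library size) of the 4 IMF clones lay above those of the 4 SF clones without overlap for 8 of the 10 genes, against 18% of all genes in that direction, and *LRP4* was separated the opposite way, so that 9 of 10 did not overlap in either direction against 32.1% of all genes. The median log2 fold change of the 10 genes (IMF minus SF) was 5.04, or 3.89 when the 5 genes counted 3 times or less in all SF clones were set at 3 counts, and the median over all genes tested was -0.03. In bulk RNA, fewer cells that express a gene and less RNA in each cell cannot be told apart.

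**Figure D1:**
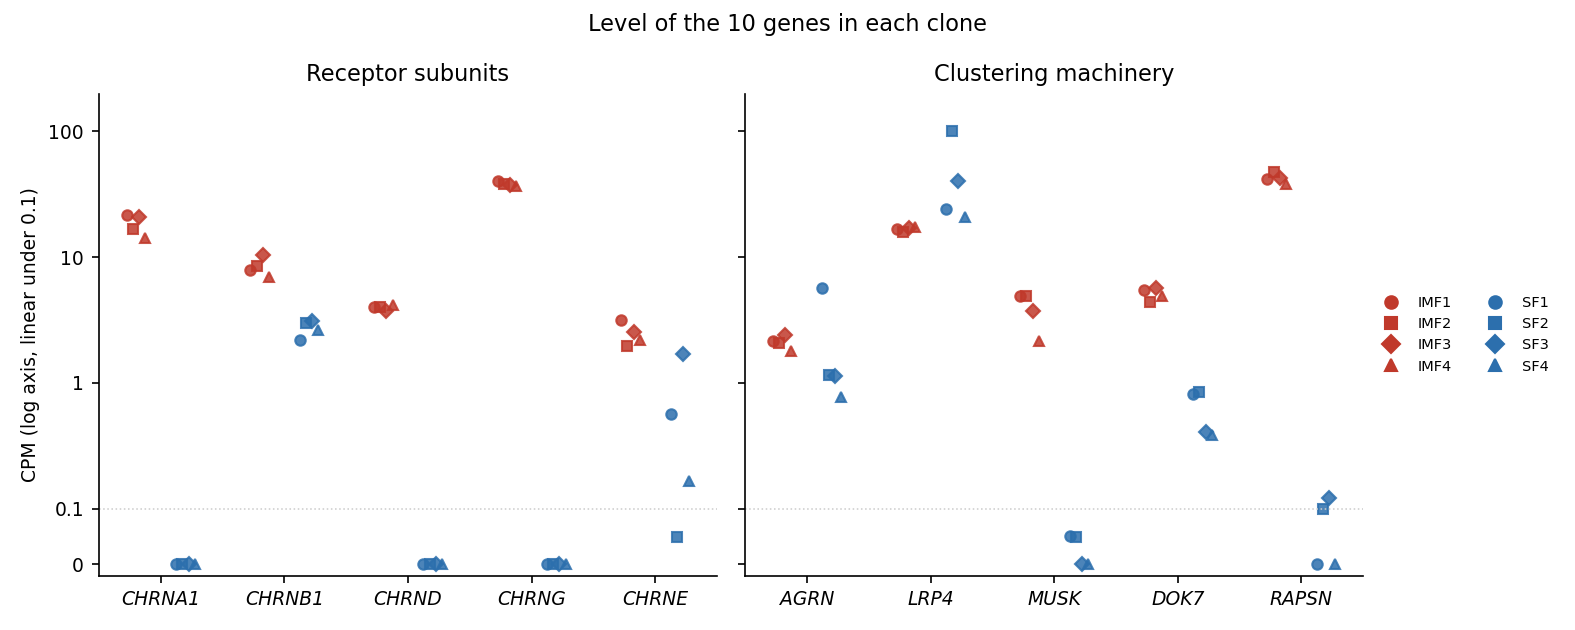
Level of each gene in each clone, in CPM on an axis that is logarithmic above 0.1 and linear below it, with red points for IMF clones and blue points for SF clones. *CHRNA1*, *CHRND* and *CHRNG* lie at 0 in every SF clone, *RAPSN* and *MUSK* lie at or near 0, and *LRP4* is the gene whose SF points all lie above its IMF points.

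Of the subunits that both receptor forms share, *CHRNA1* and *CHRND* were found in every IMF clone and in no SF clone. *CHRNA1*, which encodes the α subunit that carries the acetylcholine binding sites, had 451, 516, 461 and 300 counts in IMF1 to IMF4 (21.6, 16.9, 20.9 and 14.3 CPM) and 0 counts in each SF clone. IMF4 was the lowest IMF clone, the highest was 1.52 times that level, and the groups were fully apart. In the SF clones, 3 counts, taken here as the floor where a count was 0, would have been 0.122 to 0.165 CPM. Against that floor in each SF clone *CHRNA1* was at least 125-fold higher in IMF (adjusted p = 4.28e-05). *CHRND*, the δ subunit, was counted 83, 123, 82 and 87 times in IMF1 to IMF4 (3.98, 4.02, 3.72 and 4.14 CPM) and 0 in each SF clone. The IMF clones were nearly equal and the groups were fully apart, and *CHRND* was at least 26.8-fold higher in IMF (adjusted p = 0.000117).

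*CHRNB1*, the β subunit, differed from the other shared subunits in that every SF clone expressed it. It was measured at 7.96, 8.47, 10.3 and 7.00 CPM in the IMF clones and at 2.21, 3.00, 3.13 and 2.65 CPM in the SF clones. All IMF clones were above all SF clones, and the spread within each group was small beside the gap. The means were 8.44 ± 1.40 CPM (SD, n = 4) and 2.75 ± 0.412 CPM (SD, n = 4), a 3.07-fold difference with a log2 fold change of 1.62 (SE 0.18, adjusted p = 0.000413).

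The fetal subunit had the highest lower bound of the subunits absent from SF counts, and the adult subunit was not past the threshold. *CHRNG*, which encodes the fetal γ subunit, was counted 843, 1163, 826 and 767 times in IMF1 to IMF4 (40.4, 38.0, 37.4 and 36.5 CPM) and 0 in each SF clone. The highest IMF clone was 1.11 times the lowest, and no SF read was assigned to the gene. Against 3 counts in each SF clone it was at least 258-fold higher in IMF (adjusted p = 3.42e-06). Having 0 counts in every SF clone was shared by 107 of the genes tested (0.583%), *CHRNA1*, *CHRND* and *CHRNG* among them.

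*CHRNE*, which encodes the ε subunit of the adult receptor, was counted 66, 60, 56 and 46 times in IMF1 to IMF4 (3.17, 1.96, 2.54 and 2.19 CPM) and 11, 1, 42 and 3 counts in SF1 to SF4 (0.565, 0.0501, 1.70 and 0.165 CPM). The IMF clones were alike, whereas the SF clones ranged 34.1-fold, with SF3 just under the lowest IMF clone, and the groups did not overlap. The mean was 2.46 ± 0.525 CPM (SD, n = 4) in IMF and 0.621 ± 0.755 CPM (SD, n = 4) in SF. The log2 fold change was 1.94 (SE 0.78, adjusted p = 0.107), and 2 SE on either side ran from 0.37 to 3.51, so the data neither pass the threshold nor place the difference near 0. Without SF3 the log2 fold change was 3.18 (adjusted p = 0.0137), and with limma-voom on all clones it was 2.67 (adjusted p = 0.0305).

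Within a clone the balance of fetal to adult subunit was compared as the ratio of counts per gene length, which needs no library scaling. The ratio of *CHRNG* to *CHRNE* was 13.0 in IMF1, 19.8 in IMF2, 15.1 in IMF3 and 17.0 in IMF4. All 4 IMF clones thus held more than 10 times as much fetal as adult subunit mRNA per length, within a narrow range. On the log2 scale, with 0.5 added to each count, the mean was 3.99 ± 0.26 (SD, n = 4). An exact two-sided sign-flip permutation test over the 16 patterns of 4 clones gave p = 0.125, the smallest p that 4 clones allow.

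In the SF clones the fetal subunit had 0 counts, so the ratio of counts was 0 in each. Even with 3 *CHRNG* counts the ratio would have been at most 0.278 in SF1 and 0.0729 in SF3, below 1 and far below every IMF clone. In SF2 and SF4, with 1 and 3 *CHRNE* counts, the same allowance gave 3.06 and 1.02, so the depth does not show which subunit was the more abundant there. With 0.5 added to each count the mean log2 ratio was -3.80 ± 2.10 (SD, n = 4) in SF and the groups differed by 7.79, a size set by that pseudocount (9.95 with 0.1 and 5.79 with 3). The direction was the same with each, and the exact two-sided permutation test over 70 splits gave p = 0.0286, the smallest p that 4 against 4 clones can give.

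**Figure D2:**
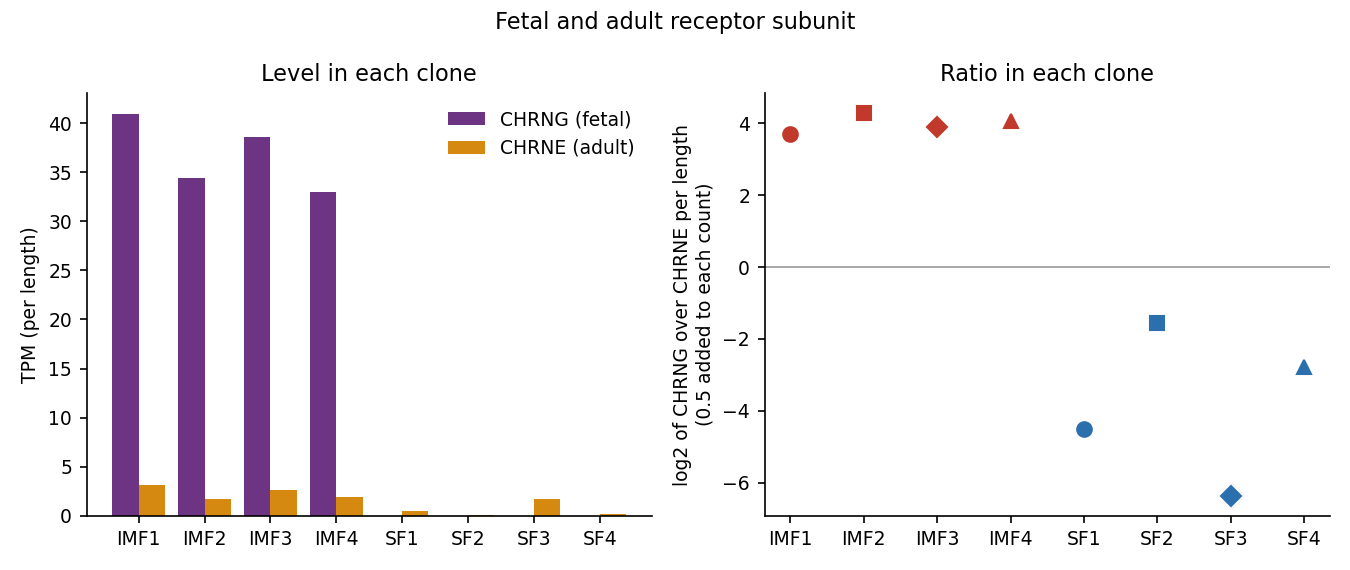
Left, level per length (TPM, linear axis) of the fetal subunit gene *CHRNG* and the adult subunit gene *CHRNE* in each clone. Right, log2 ratio of *CHRNG* to *CHRNE* per length in each clone with 0.5 added to each count. The IMF clones lie between 3.69 and 4.29, and the SF clones lie below 0, where the size depends on the 0.5 because *CHRNG* had 0 counts.

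Of the 5 clustering genes, *MUSK*, *DOK7* and *RAPSN* were higher in IMF clones, the agrin receptor *LRP4* was lower, and agrin itself was not past the threshold. *AGRN*, a heparan sulfate proteoglycan of basal laminae whose neural splice form is the clustering signal, was counted 45, 63, 53 and 38 times in IMF1 to IMF4 (2.16, 2.06, 2.40 and 1.81 CPM) and 111, 23, 28 and 14 counts in the SF clones (5.70, 1.15, 1.14 and 0.771 CPM). SF1 was above every IMF clone and the other SF clones were below every IMF clone, so the groups overlapped. The log2 fold change was -0.05 (SE 0.61, adjusted p = 0.963), with 2 SE on either side running from -1.27 to 1.16, an interval that allows a difference of over 2-fold either way. The sign of so small a value was not stable: it was above 0 with limma-voom (0.44), with the clone number as a block (0.44), with scaling by total counts (0.09) and without IMF4 (0.01). Without SF1 *AGRN* was past the threshold as higher in IMF, with a log2 fold change of 1.04 (adjusted p = 0.022). Gene counts pool the splice forms, so the neural form was not measured separately.

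*LRP4*, the agrin receptor, which also binds sclerostin in bone, was measured at 16.6, 15.8, 17.1 and 17.4 CPM in the IMF clones and at 24.2, 100.7, 40.3 and 20.9 CPM in the SF clones. All SF clones were above all IMF clones, the IMF clones were nearly equal, and SF2 stood highest by far. The means were 16.7 ± 0.690 CPM (SD, n = 4) in IMF clones and 46.5 ± 37.1 CPM (SD, n = 4) in SF, and the log2 fold change was -1.48 (SE 0.47, adjusted p = 0.0491). Without SF2 it was -0.77 (adjusted p = 0.0379), which is under the fold threshold, and without any 1 of the IMF clones or without SF3 the adjusted p was between 0.0703 and 0.104. The direction was the same in all 19 alternatives, and the call held in 8 of them.

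*MUSK*, the receptor tyrosine kinase at the centre of the pathway, was counted 102, 151, 82 and 45 times in IMF1 to IMF4 (4.89, 4.94, 3.72 and 2.14 CPM) and 1, 1, 0 and 0 counts in the SF clones. IMF4 was the lowest IMF clone, and the highest was 2.31 times that level, the widest range of the 10 genes in IMF. The summed counts were 380 in IMF and 2 in SF, a ratio of 165 after library scaling (95% exact binomial interval 45.5 to 1371, counting error only), with an adjusted p of 0.000154. *DOK7*, the cytoplasmic activator of MuSK, had reads in every SF clone. It was measured at 5.52, 4.41, 5.67 and 4.95 CPM in the IMF clones and at 0.821, 0.851, 0.406 and 0.386 CPM in the SF clones. Every IMF clone was well above every SF clone, with a log2 fold change of 3.05 (SE 0.31, adjusted p = 0.000266), an 8.30-fold difference.

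*RAPSN*, which encodes the scaffold rapsyn that holds the receptors in clusters, was the most abundant of the 10 genes in the IMF clones. It had 872, 1453, 945 and 794 counts there (41.8, 47.5, 42.8 and 37.8 CPM) and 0, 2, 3 and 0 counts in SF1 to SF4. The groups were far apart, and the SF values were at or under the floor. The summed counts of 4064 and 5 gave a ratio of 707.5 after library scaling (95% exact binomial interval 303 to 2180, counting error only), with an adjusted p of 2.89e-06. Being past the threshold as higher in IMF with at most 3 counts in every SF clone was found for 173 of the genes tested (0.943%), and *CHRNA1*, *CHRND*, *CHRNG*, *RAPSN* and *MUSK* were 5 of these.

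**Figure D3:**
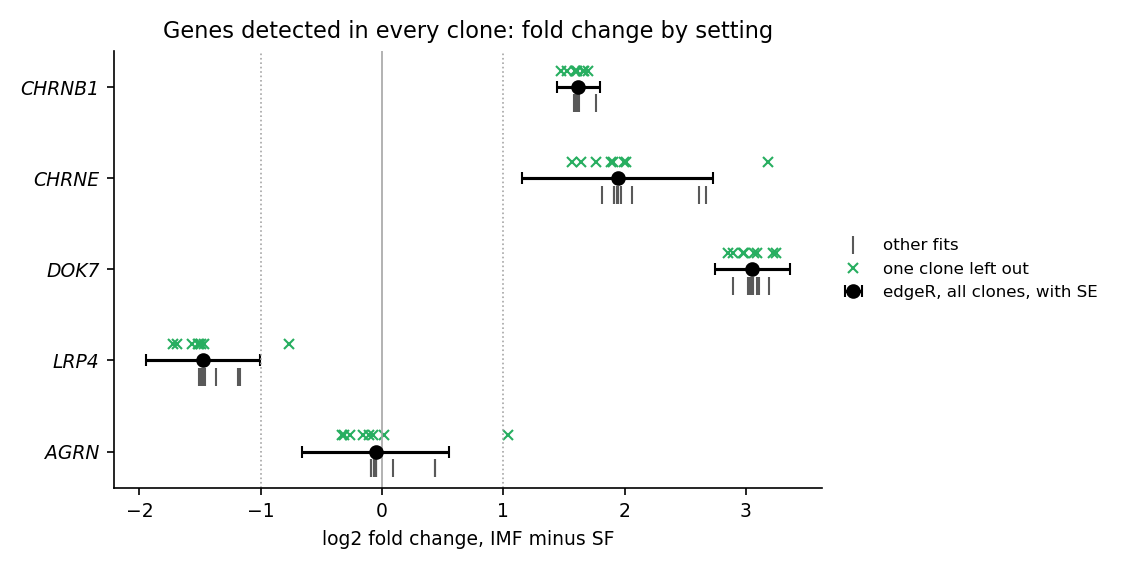
Log2 fold change (IMF minus SF) of the 5 genes that had reads in every clone. Black points with bars are the edgeR values with their SE, grey ticks are the other fits, green crosses are fits without 1 clone, and dotted lines mark a log2 fold change of 1 in either direction. *CHRNB1* and *DOK7* stay to the right of 1, while *LRP4* without SF2 (-0.77), *CHRNE* without SF3 (3.18) and *AGRN* without SF1 (1.04) stand apart.

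Levels of different genes were compared per length, in TPM (counts divided by the deposited gene length and scaled to the same sum in every clone). In IMF clones the order of mean level was *RAPSN* (42.2 ± 4.74 TPM, SD, n = 4), *CHRNG* (36.7 ± 3.71), *CHRNA1* (8.59 ± 2.18), *CHRNB1* (3.96 ± 0.879), *CHRND* (3.60 ± 0.160), *LRP4* (2.87 ± 0.259), *DOK7* (2.59 ± 0.461), *CHRNE* (2.35 ± 0.638), *MUSK* (0.828 ± 0.289) and *AGRN* (0.456 ± 0.0827). The clone ranges of these neighbours overlapped for *RAPSN* and *CHRNG*, *CHRNB1* and *CHRND*, *LRP4* and *DOK7*, *DOK7* and *CHRNE*, and *MUSK* and *AGRN*, and were separate for the others. Compared within each clone, *RAPSN* was above *CHRNG*, *LRP4* above *DOK7* and *MUSK* above *AGRN* in 4 of 4. *CHRNB1* was above *CHRND* and *DOK7* above *CHRNE* in 3 of 4. Rapsyn and the fetal subunit were above 88.5% and 87.0% of all genes tested by TPM in IMF clones, whereas agrin was above 16.4%.

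In SF clones the order was different. *LRP4* was the highest at 8.23 ± 7.13 TPM (SD, n = 4), followed by *CHRNB1* at 1.27 ± 0.273, *CHRNE* at 0.592 ± 0.742, *AGRN* at 0.463 ± 0.487 and *DOK7* at 0.309 ± 0.141. *LRP4* was separate from *CHRNB1*. The clone ranges of *CHRNB1* and *CHRNE*, *CHRNE* and *AGRN*, and *AGRN* and *DOK7* overlapped, and *DOK7* was separate from *RAPSN*, the next gene. *RAPSN* (0.0579 TPM) and *MUSK* (0.00544 TPM) followed, and the other 3 subunits were at 0.

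**Figure D4:**
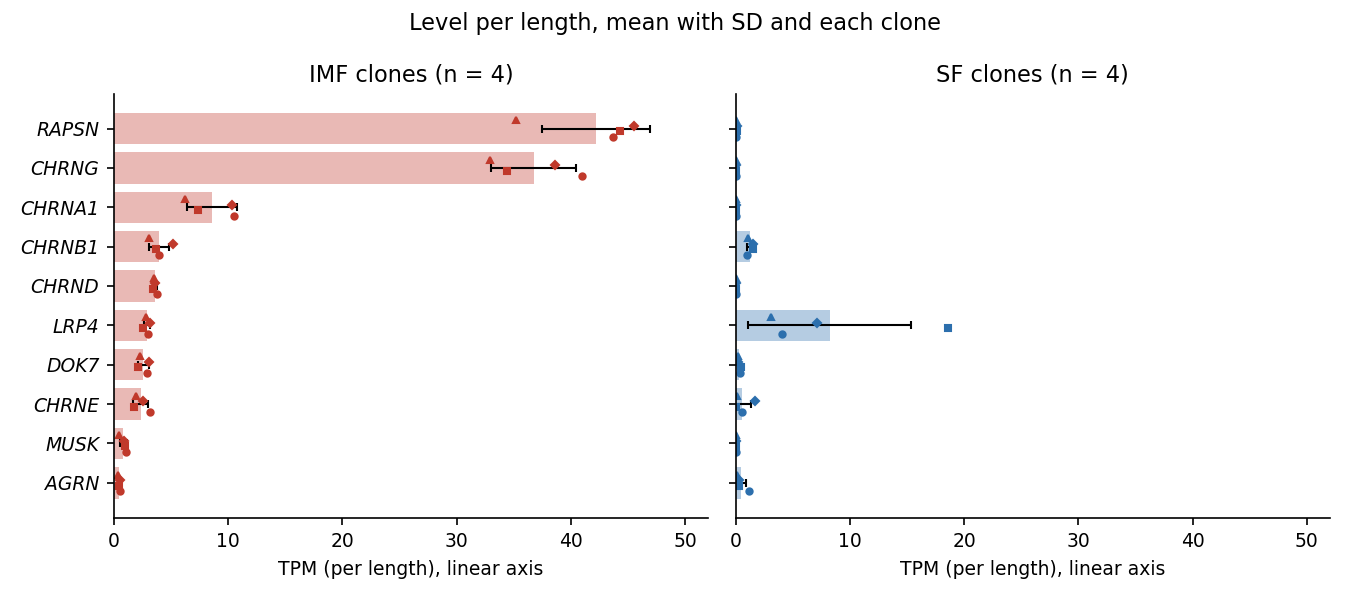
Level per length of each gene in TPM on a linear axis, as the mean of 4 clones (bar) with its SD (line) and each clone (points), IMF on the left and SF on the right. In IMF clones *RAPSN* and *CHRNG* stand above the other 8 genes, and in SF clones *LRP4* is the highest.

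The receptor holds a pair of α subunits for each of the others, and the mRNA levels in IMF clones were set against *CHRNA1* on the TPM scale to describe their proportions. *CHRNB1* stood at 0.467 ± 0.0644 of *CHRNA1* (SD, n = 4) and *CHRND* at 0.438 ± 0.103. *CHRNE* was lower at 0.274 ± 0.0372. *CHRNG* stood at 4.41 ± 0.741 times *CHRNA1*, between 3.73 and 5.33 in the 4 clones (2.12 times in CPM, with no division by length), so that the fetal subunit mRNA was in excess of every other subunit in each of them per length. *RAPSN* was 0.767 ± 0.0756 of the sum of the 5 subunits, ranging from 0.700 to 0.875.

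The spread among clones differed from gene to gene. The coefficient of variation in CPM had a median of 11.4% over the 10 genes in IMF (4.13% for *LRP4* to 33.5% for *MUSK*), against 8.60% for the 15625 genes whose mean count was 20 or more. In SF the 4 genes with more than 3 counts in every clone (*CHRNB1*, *DOK7*, *LRP4* and *AGRN*) had a median of 60.5% (15.0% to 107%), against 17.3% for the same 15625 genes, and *CHRNB1* varied no more there (15.0%) than in IMF (16.6%). IMF4 was the lowest IMF clone for 6 of the 10 genes, *CHRNA1*, *CHRNB1*, *CHRNG*, *RAPSN*, *MUSK* and *AGRN*. The variance among IMF clones divided by that expected from counting alone was 0.177 for *CHRND*, 0.621 for *AGRN*, 0.752 for *LRP4* and 1.56 for *CHRNG*. A ratio under 1 was found for 3 of the 10 genes and for 22.8% of the 13133 genes with similar counts. It was 9.49 for *RAPSN*, 9.77 for *MUSK* and 14.3 for *CHRNA1*, and its median over those 13133 genes was 2.32. In SF clones it was 1.28 for *CHRNB1*, 2.18 for *DOK7*, 18.7 for *CHRNE*, 50.6 for *AGRN* and 577.7 for *LRP4*.

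The genes lie on 6 chromosomes of the ARS-UCD2.0 assembly, by the RefSeq list of that assembly. *CHRNA1* is at chr2:22084351-22103937. *CHRND* (chr2:120166846-120174108) and *CHRNG* (chr2:120180193-120185721) lie 6084 bases apart, and both were at 0 in every SF clone. The next gene beyond *CHRNG*, the translation initiation factor gene *EIF4E2*, 1675 bases away, was expressed in both groups at 55.1 ± 5.39 and 40.1 ± 4.32 CPM (SD, n = 4), with a log2 fold change of 0.46 (adjusted p = 0.0127). *LRP4* (chr15:76789246-76840794) and *RAPSN* (chr15:77261077-77273502) lie 420.3 kb apart and differed in opposite directions. *CHRNE* (chr19:26484743-26489333) and *CHRNB1* (chr19:27121908-27132655) lie 632.6 kb apart. *DOK7* is at chr6:115390107-115424457, *MUSK* at chr8:100188456-100287913 and *AGRN* at chr16:51422630-51461881.

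Some of these genes overlap others, and the sources differ on whether the libraries kept strand, so reads of overlapping genes may have been shared. *CHRNB1* overlaps the zinc finger gene *ZBTB4* over 875 bases. *ZBTB4* was at 31.9 ± 1.00 CPM in IMF clones and 37.8 ± 4.62 CPM in SF clones (SD, n = 4), the opposite order to *CHRNB1*, with a log2 fold change of -0.24 (adjusted p = 0.0925). On the other side, 127 bases away, the fibroblast growth factor family gene *FGF11* was at 8.80 ± 0.839 CPM in IMF clones and 0.217 ± 0.315 CPM in SF clones, with a log2 fold change of 5.35 (adjusted p = 0.00206). The genes inside or across *CHRNE*, *MUSK* and *AGRN* were not analysed here, and their part in these values was not tested.

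Further genes of the junction were followed in 8 lists. Of the 66 genes tested in them, 12 were past the threshold, against 8.82% of all genes, with 8 higher and 4 lower in IMF clones (8 and 5 with DESeq2, 8 and 2 with limma-voom and without IMF3), with a median log2 fold change of -0.05 against -0.03 over all genes. None of the 18 genes downstream of MuSK was past it in edgeR, DESeq2 or limma-voom, against 8.82% of all genes, with a median log2 fold change of 0.00. An adjusted p under 0.05 alone was found in edgeR for 5 of the 18, the same number as at an unadjusted p under 0.05, against 25.8% and 37.9% of all genes. Among these, the kinase gene *ABL2* was at 62.2 and 36.1 CPM in IMF and SF, with a log2 fold change of 0.78 (adjusted p = 0.00734) that was under the fold threshold. *YES1* was also higher in IMF (log2 fold change 0.48), whereas *RHOA* (-0.355), *DVL1* (-0.32) and *CTTN* (-0.43) were lower, so the 5 did not share a direction. Of the 7 genes of receptor assembly and glycosylation, among them the nicotinic receptor chaperone *RIC3*, none was past it in the 3 tools, 1 had an unadjusted p under 0.05 (37.9% of all genes), and the median was -0.18. Of the 7 genes of the motor nerve terminal, among them *CHAT*, which makes acetylcholine, none was past it in the 3 tools or had an unadjusted p under 0.05, and the median was 0.17. With 8.82% of all genes past the threshold, a count of 0 in lists of this size reads as no result about them.

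Of 9 basal lamina and synaptic cleft genes, 2 were higher in IMF, against 4.78% of all genes, and the median log2 fold change was 0.02. *LAMA5*, the laminin α5 chain of the synaptic basal lamina and of many epithelia and vessels, was counted 5872, 8032, 6797 and 6091 times in IMF1 to IMF4 and 1535, 396, 315 and 510 in the SF clones. All IMF clones were above all SF clones, and SF1 was the highest SF clone. The means were 285.6 ± 18.9 and 34.9 ± 29.9 CPM (SD, n = 4), with a log2 fold change of 3.04 (SE 0.53, adjusted p = 0.004). *COL13A1*, a transmembrane collagen of the junction, was counted 80 to 113 times in IMF clones and 0 times in every SF clone, at least 29.2-fold higher (adjusted p = 0.000155).

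Of 9 postsynaptic membrane genes, 2 were higher in IMF, against 4.78% of all genes, and the median was -0.17, against -0.03 over all genes. *NCAM1*, a cell adhesion molecule of myoblasts and of nerve, was at 184.1 ± 9.31 CPM in IMF clones and 43.0 ± 26.5 CPM in SF clones (SD, n = 4), with a log2 fold change of 2.10 (adjusted p = 0.00762). Its call was lost with glmTreat, which tests whether the fold exceeds 2 (adjusted p = 0.112). *ANK3*, which encodes the membrane scaffold ankyrin-G, was at 16.8 ± 1.43 and 0.997 ± 0.729 CPM, with a log2 fold change of 4.07 (adjusted p = 0.00225). Neither gene overlapped between the groups.

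Of 7 neuregulin receptor and subsynaptic transcription factor genes, 1 was higher and 2 were lower, against 4.78% and 4.04% of all genes, with a median of 0.30. *ERBB3*, a neuregulin receptor, was counted 61, 70, 44 and 33 times in IMF1 to IMF4 and 3, 2, 2 and 0 in the SF clones, a ratio of 25.9 in summed counts after library scaling (95% exact binomial interval 12.3 to 65.1, counting error only, adjusted p = 0.000818). *ETV5*, an ETS factor of the subsynaptic nuclei, was lower in IMF at 3.20 ± 0.426 against 8.12 ± 2.32 CPM (log2 fold change -1.34, adjusted p = 0.00336), a call lost with glmTreat (adjusted p = 0.414). Its relative *ETV4* was lower at 1.57 ± 0.338 against 5.65 ± 2.74 CPM (log2 fold change -1.84, adjusted p = 0.0187), with overlapping clones. *ETV4* was not past the threshold with glmTreat, with limma-voom, with the clone number as a block or without IMF3 (adjusted p = 0.299, 0.0884, 0.0638 and 0.0535).

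Of 6 regulators of the subunit genes, 3 were higher and 1 lower, against 4.78% and 4.04% of all genes, with a median log2 fold change of 4.00. The myogenic factor *MYOD1* was counted 3632, 4600, 3798 and 3195 times in IMF1 to IMF4 and 0 in each SF clone, at least 1098-fold higher (adjusted p = 2.91e-06). *MYOG*, the myogenin gene, was at 40.7 ± 5.24 CPM (SD, n = 4) in IMF and 0 counts in each SF clone, at least 275-fold higher (adjusted p = 1.03e-05). *MYF5*, the third such factor, was at 20.1 ± 1.27 CPM in IMF and had 0, 2, 0 and 5 counts in SF1 to SF4 (adjusted p = 3.56e-05). *HDAC9*, a histone deacetylase that restrains subunit genes in active muscle, was lower in IMF at 3.94 ± 0.391 against 10.96 ± 5.78 CPM (log2 fold change -1.48, adjusted p = 0.0221). This call was lost with glmTreat (adjusted p = 0.593), with limma-voom (0.0745) and without any 1 of the IMF clones or SF4 (adjusted p = 0.0504 to 0.0545).

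Of 3 neuronal nicotinic subunit genes, which form receptors of ganglia and brain, 1 was lower in IMF, against 4.04% of all genes, and the median was -1.16. *CHRNA3*, the ganglionic α3 subunit, was counted 147, 251, 157 and 159 times in IMF1 to IMF4 and 1851, 762, 1274 and 1255 in the SF clones. The SF clones were all above the IMF clones, the reverse of the muscle subunits. The means were 7.49 ± 0.533 and 63.5 ± 24.5 CPM (SD, n = 4), with a log2 fold change of -3.08 (SE 0.27, adjusted p = 0.000134). The deposited length of *CHRNA3* is only 357 bases, against 2189 for *CHRNA5* and 2450 for *CHRNB4*, and its span overlaps that of *CHRNA5*. Whether its counts stand for the whole subunit transcript was not tested. The usual partners of *CHRNA3*, *CHRNA5* and *CHRNB4*, were at means of 0.252 and 0.499 CPM in IMF and 0.372 and 1.10 CPM in SF, and they were not past the threshold (adjusted p = 0.756 and 0.497). All 8 counts of *CHRNA5* were even, as were those of *CHAT* and of 9.96% of the genes in the table but of none of the 10 receptor and clustering genes, and how read pairs were counted is not given in the sources used here.

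**Figure D5:**
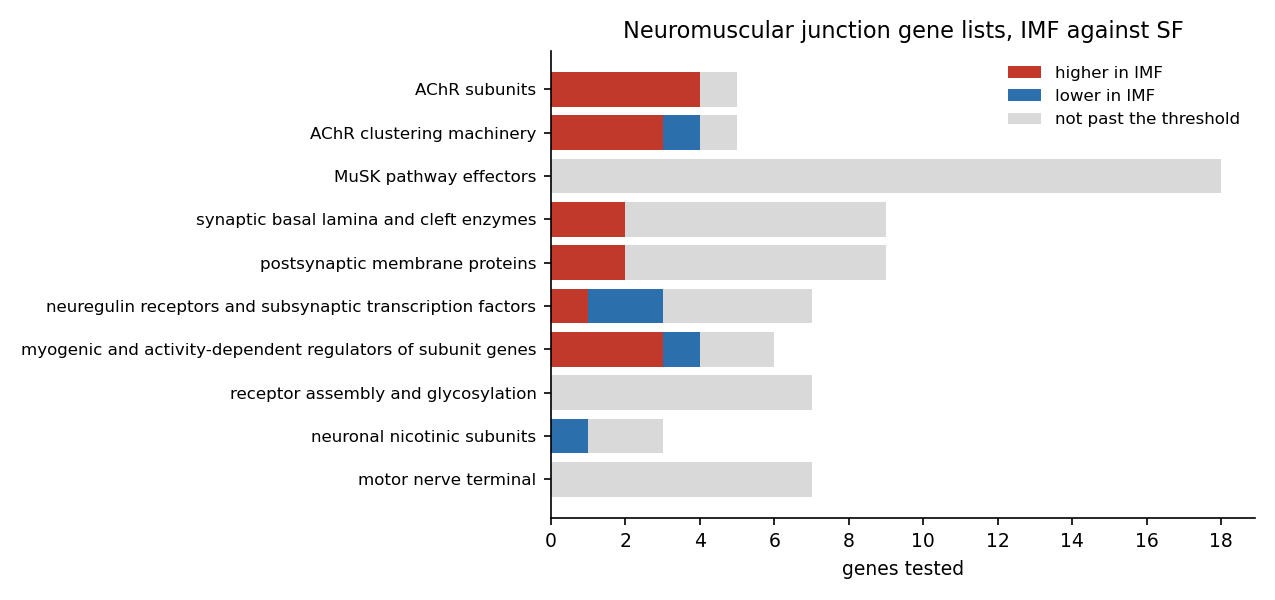
Number of genes tested in the receptor subunit and clustering lists and in 8 further junction lists, divided into those higher in IMF (red), lower in IMF (blue) and not past the threshold (grey). The receptor and clustering lists have 8 of 10 genes past it and the 8 further lists 12 of 66, against 8.82% of all genes.

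Among the genes whose log2 CPM followed *CHRNG* most closely over the 8 clones were *EMCN* (Pearson r = 1.0000) and *MYOD1* (0.9999), both at 0 counts in every SF clone. Among all genes tested, 788 had r above 0.95 with *CHRNG*, since the points fall into the groups of 4 clones, and each r describes that split. For *CHRNE* the closest were *PCBP3* (0.9874), *NEK6* (0.9847) and *PTPN3* (0.9778), and 26 genes were above 0.95. *PCBP3* was counted 46, 43, 43 and 35 times in IMF1 to IMF4 and 10, 4, 30 and 7 in the SF clones, with SF3 the highest SF clone as for *CHRNE*.

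Most markers of skeletal muscle and of endothelium were higher in IMF clones, against 4.78% of all genes, whereas most markers of the other cell types were not past the threshold. Of 10 skeletal muscle markers all 10 were higher in IMF, with a summed level of 416.5 to 532.9 CPM in the IMF clones and 2.00 to 24.2 CPM in the SF clones, where *MYL1*, *CKM*, *MYOM2* and *ACTN2* were at 0 in each. *MYH3*, the embryonic myosin heavy chain gene, was at 123.1 ± 11.2 CPM in IMF clones and 0.166 ± 0.0915 CPM in SF clones (SD, n = 4), and *DES*, the desmin gene, at 97.6 ± 8.24 and 12.1 ± 10.2 CPM. *ACTA1*, the skeletal actin gene, was at 101.0 ± 14.8 and 0.0616 ± 0.0790 CPM, and *MYLPF*, a myosin light chain gene, at 91.3 ± 12.4 and 0.0227 ± 0.0265 CPM. Of 10 endothelial markers 9 were also higher in IMF, with a summed level of 160.0 to 211.0 CPM against 27.3 to 38.2 CPM, and *KDR* and *EMCN* were at 0 in each SF clone. *CDH5*, the VE-cadherin gene, was at 53.9 ± 2.88 CPM in IMF clones and 0.174 ± 0.0463 CPM in SF clones. *PECAM1*, an endothelial adhesion molecule, was at 27.9 ± 2.64 and 0.324 ± 0.221 CPM, *VWF*, the von Willebrand factor gene, at 12.8 ± 1.16 and 2.23 ± 0.690 CPM, and *TIE1*, a receptor kinase, at 12.7 ± 0.916 and 0.0125 ± 0.0250 CPM. The part of muscle or endothelial RNA in the values of the receptor and clustering genes was not tested.

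Of 5 Schwann cell markers, *MBP*, a myelin gene, was higher in IMF, at 187 to 295 counts against 0 in each SF clone, and the summed levels were 18.3 to 24.6 CPM and 8.54 to 12.5 CPM. Of 4 neuron markers *NEFH* was higher and *ISL1* lower, with sums of 10.6 to 15.3 and 6.41 to 10.0 CPM, and of 6 leukocyte markers *CD14* was higher and *CD3E* lower, with sums of 32.6 to 85.9 and 94.8 to 152.5 CPM. As 8.82% of all genes were past the threshold, calls this few in such small lists are given only as a description. Of the 8 preadipocyte and fibroblast markers, which check the labelled cell type, all were detected in both groups. *COL1A1* and *THY1* were lower in IMF and none was past the threshold as higher. *PDGFRA*, which marks adipocyte precursors, was at 184.3 ± 2.84 CPM in IMF clones and 131.4 ± 23.2 CPM in SF clones (SD, n = 4) without overlap, with an adjusted p of 0.0214 and a log2 fold change of 0.49, which was under the fold threshold. Total counts were 19658612 to 29315019 per clone with similar depth in both groups, and no library stood apart in depth other than IMF2, the deepest.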

How the data were processed

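Counts per gene and clone were deposited without normalization for 8 clones (4 IMF, 4 SF), grouped by their labels. The authors used Trimmomatic 0.39 for trimming, HISAT2 (methods) or STAR 2.7.11a (submitters' processing notes) for alignment to ARS-UCD2.0, and featureCounts 2.0.2 for counting. The kit is called non-stranded in the methods and strand-marking in the labels. Whether multi-mapped reads were counted is not given in the sources used here. The deposited gene length in bases was used for TPM. Deposited group means, fold changes and p-values were not used. A row without a gene name (0.0148% to 0.0209% of counts) was left out.

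Genes with at least 20 counts in total (18339) were compared between depots in edgeR 4.0.16 (R 4.3.3, TMM, two-sided quasi-likelihood test, Benjamini-Hochberg adjustment over all of them), and the script was tested on simulated data. The SE was the log2 fold change divided by the square root of F. Lower bounds used 3 counts per clone. The exact permutation tests, TPM and figures used Python 3.11.15. Total counts ranged from 19658612 to 29315019, 3 counts were 0.0981 to 0.165 CPM, and intervals cover counting error only. Alternatives were DESeq2 1.42.0, limma-voom (limma 3.58.1), other scalings, filters, prior count, robust dispersion, glmTreat, a clone-number block and leaving out each clone. The genes and lists were chosen with earlier results of these data known. Named were all 10 genes, the genes past the threshold in each list (at most 4 per direction, by mean CPM), and the 3 genes most like *CHRNG* and *CHRNE*, of which 1 is not reported here. *ABL2*, *YES1*, *RHOA*, *DVL1*, *CTTN*, *RIC3*, *CHAT*, *CHRNA5*, *CHRNB4*, *PDGFRA*, the neighbouring genes and the markers at 0 in every SF clone (*MYL1*, *CKM*, *MYOM2*, *ACTN2*, *KDR*, *EMCN*) were named after their values were seen.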

Additional observations from a re-analysis of the deposited data

Results flagged for a closer look

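*AGRN* in the SF clones was picked out because SF1, at 5.70 CPM, lay far from the other SF clones (0.771 to 1.15 CPM): its gap to the nearest of them was 0.9229 of the whole range (Dixon's test, above its 95% limit for 4 samples). Of 17 groups of 4 clones checked in this way 1 exceeded the limit, and chance alone gives about 1 in 20. The cause was not tested.

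The log2 ratio of *CHRNG* to *CHRNE* per length was picked out because it differed between the groups by 7.79 (IMF minus SF, with 0.5 added to each count, a size that depends on this pseudocount since *CHRNG* had 0 counts in SF clones, exact two-sided permutation test p = 0.0286, higher in 4 of 4 IMF clones than in every SF clone).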

How the results depend on the processing

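*CHRNA1*, *CHRNB1*, *CHRND*, *CHRNG*, *RAPSN*, *MUSK* and *DOK7* stayed past the threshold and higher in IMF in all 19 alternatives. The number of the 10 genes past it ranged from 7 to 9, and that of the 66 other junction genes from 8 to 13. *LRP4* stayed lower in IMF but lost its call in 11 of the 19, with log2 fold changes of -1.72 to -0.77 and adjusted p up to 0.799, the last with glmTreat, which tests whether the fold exceeds 2. *CHRNE* passed the threshold in 2 of 19 and had adjusted p of 0.0137 to 0.873. *AGRN* turned to higher in IMF with limma-voom (0.44), total counts alone (0.0933), the replicate block (0.44), without IMF4 (0.01) and without SF1 (1.04), and leaving out 1 clone gave -0.33 to 1.04. The cause was not tested.

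Over all genes 1618 were past the threshold, 631 with glmTreat, whose construction demands a larger fold, and 1330 to 1641 without 1 clone. Scaling by total counts alone moved the all-gene median of the log2 fold change from -0.03 to 0.12 and the split of calls from 877 higher and 741 lower to 1078 and 539, whereas DESeq2 gave 977 and 1019 and the fit without IMF1 767 and 864. The *CHRNG* to *CHRNE* difference was 9.95 with 0.1 and 5.79 with 3 added counts. It was 6.93 to 8.54 without 1 clone, where the exact permutation p was 0.0571, the smallest that 3 against 4 allow. The ratio of *CHRNG* to *CHRNA1* was 4.41 per length, 2.12 in CPM, which leaves out the lengths, and 4.30 as a median, an alternative chosen after seeing the data.

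Clones of 1 number were not treated as pairs in the main test, since whether they shared an animal is not stated. The correlation of their deviations was -0.00933 to 0.139 over 4 pairs, and 4 of 8 clones correlated best with their own number. Values this few and weak cannot show whether they were paired. With the clone number as a replicate block 1489 genes were past the threshold, 7 of the 10 genes and 12 of the 66 others. *LRP4* was then at -1.17 (adjusted p = 0.106), and the *CHRNG* to *CHRNE* difference between same-numbered clones was 7.79 with p = 0.125 in an exact sign-flip permutation test, the smallest that 4 pairs allow. Depth limits the ratio in SF2 and SF4, and counts of 0 in SF clones cannot be told from low levels, taken here as up to 0.165 CPM.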
